A study of Mus musculus with 9 samples.

Results

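Non-functional pancreatic neuroendocrine tumors (PanNETs) of the INS-p25OE mouse were compared with normal mouse islets by RNA sequencing of bulk tissue. The comparison took in 6 of the 9 libraries of the study. M4, M5 and M6 came from tumors, and NI1, NI2 and NI3 from islets, with 1 library per sample and all 6 labelled as male. The other 3 libraries came from functional tumors and entered only a test against M4 to M6 and an alternative fit. INS-p25OE animals carried both the Ins2-rtTA transgene, which expresses a reverse tetracycline transactivator from the insulin promoter, and the tetOp-p25GFP transgene, so that p25 fused to GFP was made in beta cells while doxycycline was given in the drinking water from weaning on. The islet samples were labelled C57BL/6, the background on which the transgenic mice were kept, and were treated as transgene-free controls. Ages at collection were not given in the sources used here, and whether NI1 to NI3 each came from 1 animal or from pooled islets was not stated, so that the p-values measure the spread between these samples, which may be technical in part.

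Cdk5 is a kinase that needs a partner protein for activity. Its usual partner in neurons is p35, the product of Cdk5r1, and cleavage of p35 releases p25, which holds Cdk5 in an active state for longer. Among the proteins that Cdk5 can phosphorylate is the retinoblastoma protein Rb, which in its unphosphorylated form keeps E2F transcription factors from switching on the genes for DNA replication. Adult beta cells divide seldom and devote much of their messenger RNA to insulin, while the other endocrine cells of the islet make glucagon, somatostatin or pancreatic polypeptide. Non-functional PanNETs are those without a syndrome of hormone excess, and the term describes the animal rather than the loss of hormone from the tumor.

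Between 36468280 and 52918266 estimated reads per library lay on genes, and 29233 genes had a read in some of the 6 libraries. Levels are given as CPM, which are counts relative to a library total after TMM scaling, a procedure that makes most genes equal on average between libraries. The detection limit was set at 3 reads, which came to between 0.0474 and 0.113 CPM. Genes differ in length, so levels were compared between libraries and not between genes. Because RNA was taken from whole tissue, fewer cells of a type and less RNA per cell cannot be told apart in any of the results.

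Cdk5r1 (ENSMUSG00000048895, chromosome 11 of GRCm38, 80477023 to 80481184) was read first, since it encodes the protein of which the transgene product is a part. Its level was 161 CPM in M4, 138 CPM in M5 and 310 CPM in M6, while NI2 held 16.8 CPM and NI3 11.3 CPM. In the library labelled NI1 it was 258 CPM, within the range of the tumors, which goes against the label. All results were computed once with all 3 islet libraries and once without the library labelled NI1. This was set beforehand, as the likeness of that library to M6 was known from earlier results of these data. A direction drawn against all 3 islets rests in part on a library whose label is in doubt. With all 3 islet libraries Cdk5r1 had a log2 fold change of 1.09 (adjusted p = 0.626, standard error 1.10), and this became 3.86 (standard error 0.48, adjusted p = 0.0254) without the library labelled NI1. The library left out held a Cdk5r1 level within the tumor range, so the second p-value depends on that choice. Whether reads on Cdk5r1 came from the gene itself or from the transgene was not tested. Here and below, adjusted p-values are two-sided and were computed by the quasi-likelihood test of edgeR and adjusted over all genes tested by the Benjamini-Hochberg method. Cdk5 itself lay between 36 and 50.5 CPM in the tumors and between 33 and 37.7 CPM in the islets (log2 fold change 0.20, adjusted p = 0.623, without the library labelled NI1), and Cdk5r2, which encodes the related activator p39, was also not called.

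The likeness of the library labelled NI1 to M6 extended over the whole transcriptome. On log2(CPM + 1) of the 14913 genes tested, the Euclidean distance between these libraries was 37.1, the smallest of the 15 pairs, and 1.46% of genes differed more than 2-fold between them. NI2 and NI3 were 57.5 apart. From the library labelled NI1 the distance was 91.4 to NI2 and 102.6 to NI3, and its distance to M6 was 0.382 of the mean of these 2 values. Tumors M4, M5 and M6 were 89.7 to 102.8 apart from each other and 108.3 to 141.5 apart from NI2 and NI3. The counts of M6 and of the library labelled NI1 still differed by more than sampling noise (chi-square of 44.9 per gene, against 144 for NI2 with NI3), and they were kept as separate samples.

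**Figure D1:**
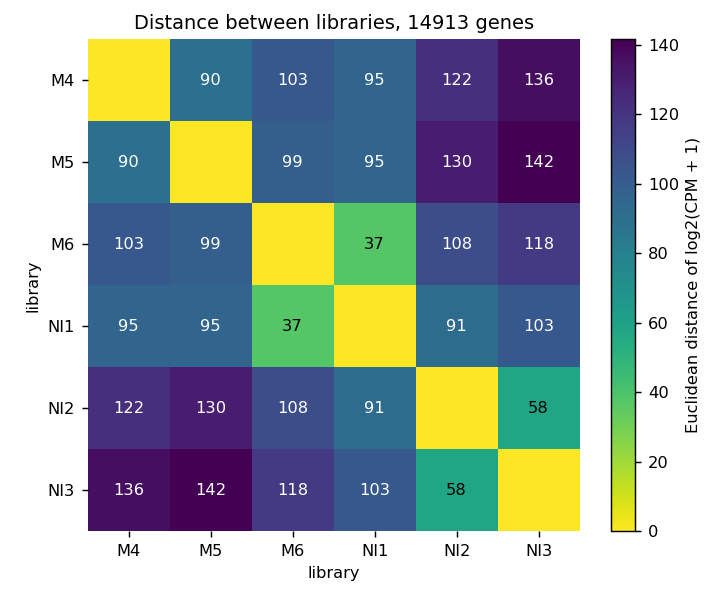
Heat map of the Euclidean distance between each pair of the 6 libraries on log2(CPM + 1) of all tested genes. M6 and the library labelled NI1 are 37.1 apart, closer than NI2 and NI3 at 57.5, and the pairs of M4, M5 or M6 with NI2 or NI3 hold the largest values, up to 141.5.

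With all 3 islet libraries, edgeR called 0 of 14913 genes higher (0%) and 0 lower (0%) at an adjusted p under 0.05, and no adjusted p fell below 0.148. Before adjustment, a p under 0.05 was reached by 1042 higher and 885 lower genes. DESeq2 on the same libraries called 142 higher and 158 lower, while limma-trend and limma-voom each called 0 in both directions. Tumor and islet values did not overlap for 1308 genes that were higher (8.77%) and 1211 that were lower (8.12%) in the tumors. Without the library labelled NI1, which left 3 tumors and 2 islet libraries, edgeR called 317 of 14500 genes higher (2.19%) and 146 lower (1.01%) in the tumors, and the median log2 fold change over all genes tested was 0.03. Without scaling beyond the library totals, 1042 genes were higher and 272 lower, so that 79.3% of the calls were higher in place of 68.5%, and the median over all genes was 0.20. With M5 left out as well, 4 genes were higher and 6 lower. These 10 genes were Igf2, Litaf, Gm30551 and AC141882.2, which were higher, and Ache, Chd5, Hist1h2bc, Ighd, Ms4a1 and Syt5, which were lower, named here after their values were seen. With M6 left out the counts were 696 and 401, and with M4 left out 106 and 67. With NI2 or NI3 left out 0 genes were called in either direction, the single remaining islet library then being assumed to vary as the tumors do.

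For the genes called without it, the position of the library labelled NI1 was described. It was left out for its likeness to M6, and M6 entered the calls. A position near the tumors was therefore built into the choice, and the counts below are no separate check of the calls. Of the 317 higher genes, 302 (95.3%) were also at least 2-fold above the mean of NI2 and NI3 in this library on the log2(CPM + 1) scale, with a median log2 ratio of 1.82 there, against 2.0 in M4, 2.31 in M5 and 1.96 in M6. Of the 146 lower genes, 121 (82.9%) were at least 2-fold below that mean in the library labelled NI1. Its median log2 ratio was -1.54, against -1.86, -2.10 and -2.09 in M4, M5 and M6. The library thus lay among the tumors or towards them in both sets. It lay below every tumor for 151 of the higher genes and above every tumor for 103 of the lower genes, and those are the genes for which the 3 tumors and the 3 islet libraries did not overlap.

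**Figure D2:**
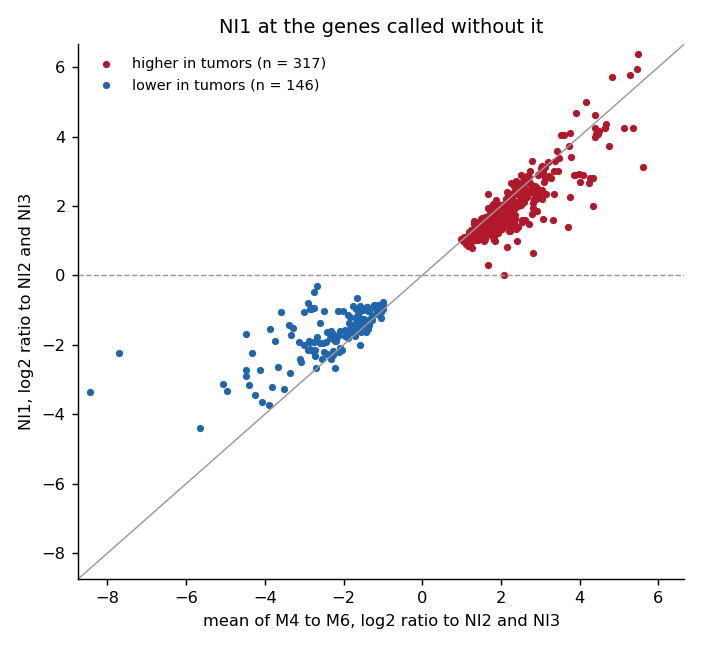
Scatter plot of the genes called without the library labelled NI1, with the log2 ratio of the tumor mean to the mean of NI2 and NI3 on the x axis and the log2 ratio of the library labelled NI1 to the same mean on the y axis, both with 1 CPM added. Most of the 317 higher genes (red) lie near the diagonal, with a few such as Npy and Lypd1 well below it, and the 146 lower genes (blue) lie mostly above it, with a few far from it.

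Genes of DNA replication made up the list with the most calls. Without the library labelled NI1, 27 of 36 measured genes rose and 0 fell, with 9 not called, against 2.19% of all genes called higher, and the median log2 fold change of the list was 2.28 against 0.03 over all genes. All 36 had a value above 0. With all 3 islet libraries 0 of the 36 were called by edgeR or by DESeq2, the median was 1.14, and 14 genes did not overlap between the groups, with the tumors higher, against 8.77% of all genes. The summed level of the list was 1644 CPM in M4, 1986 CPM in M5 and 1964 CPM in M6, while NI2 and NI3 had 424 and 367 CPM, and it was 1752 CPM in the library labelled NI1. The highest tumor was thus 1.21-fold above the lowest for this list, and the library labelled NI1 lay among them. Without M5, 0 of the 36 genes were called.

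The MCM genes encode the ring-shaped helicase that opens the DNA double strand. Mcm2 (chromosome 6, 88883474 to 88898780) stood at 124, 142 and 184 CPM in M4, M5 and M6, at 20.6 and 14.9 CPM in NI2 and NI3, and at 159 CPM in the library labelled NI1. The log2 fold change came to 3.09 (standard error 0.30, adjusted p = 0.0182) without that library and 1.21 (standard error 0.85, adjusted p = 0.493) with it. The same order of libraries, tumors and the library labelled NI1 far above NI2 and NI3, held for its partners. Mcm3 rose by 3.05 on the log2 scale, Mcm6 by 2.71, Mcm4 by 2.46, Mcm5 by 2.45 and Mcm7 by 1.97, each with an adjusted p of at most 0.0288. Of the genes that load and start the helicase some rose too, among them Cdt1, a loading factor at replication origins (38, 49 and 51.8 CPM in the tumors, 5.76 and 3.94 CPM in NI2 and NI3, log2 fold change 3.26), Gins2 (3.97), Cdc45 (2.17), Mcm10 (2.73) and Orc6 (2.08). Others of that kind, Gins3 (adjusted p = 0.181) and Gins4 (adjusted p = 0.0581), were not called. Neither were Cdc6, Orc1 and Gins1, named here after their values were seen.

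Enzymes that copy and join DNA moved in the same direction. Pcna, the sliding clamp of the DNA polymerases, was at 143, 205 and 195 CPM in the tumors and at 44.4 and 44.3 CPM in NI2 and NI3, with 174 CPM in the library labelled NI1, and rose by 2.04 on the log2 scale (standard error 0.25, adjusted p = 0.0254). Lig1, the ligase that seals newly made fragments, was at 140, 171 and 81 CPM in the tumors, 14.7 and 12.9 CPM in NI2 and NI3 and 74.3 CPM in the library labelled NI1. It was one of the replication genes whose 3 tumor values lay above all 3 islet values, and its log2 fold change was 3.25 (adjusted p = 0.0252). Pole and Pole2, subunits of polymerase epsilon, rose by 3.48 and 2.83, and Pola1 and Prim1, of the polymerase that lays down primers, by 1.67 and 1.54. The histone chaperone genes Chaf1a and Chaf1b rose by 3.18 and 3.37, and Dnmt1 and Uhrf1, which copy DNA methylation onto the new strand, by 1.52 and 2.48. Rrm1, a subunit of ribonucleotide reductase, was among the 9 not called (87.9, 54.4 and 105 CPM in the tumors, 29.5 and 30.4 CPM in NI2 and NI3, adjusted p = 0.0611).

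**Figure D3:**
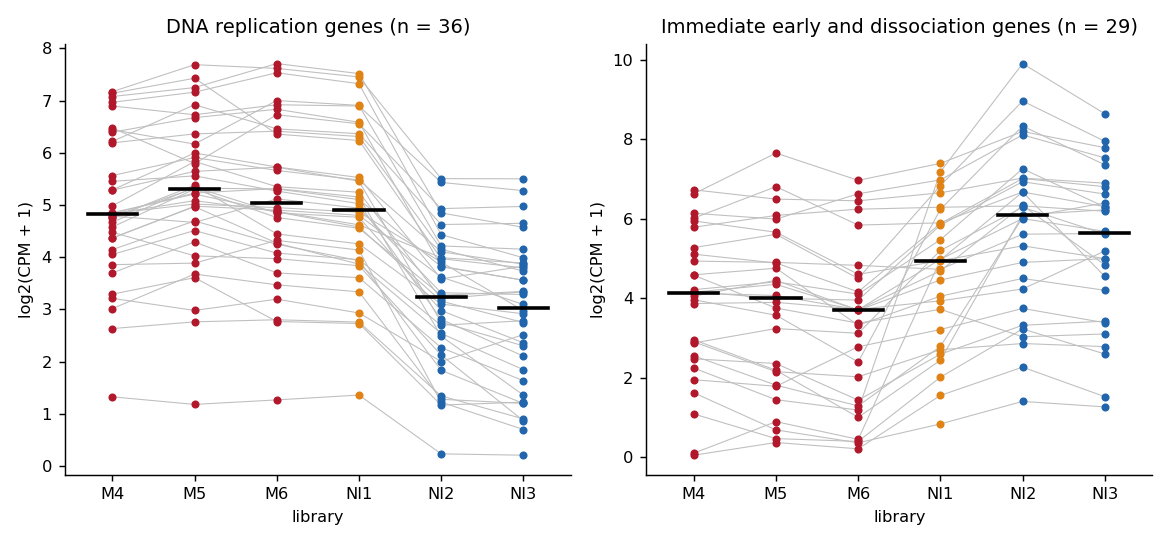
Level of each gene of 2 lists in each library, as log2(CPM + 1), with 1 grey line per gene and a black bar at the median. The replication genes (left, 36 genes) lie higher in M4 to M6 and in the library labelled NI1 than in NI2 and NI3, while the immediate early genes (right, 29 genes) lie lowest in M4 to M6 and in between in the library labelled NI1.

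Since E2F factors act on replication genes, their promoters were searched for E2F sites in the 250 bases before the RefSeq start (GRCm38.p6), on both strands, spelled TTTCGCGC, TTTGGCGC or TTTCCCGC. Of the genes called higher, 244 of 317 had such a sequence, and 10.7% of them held a match, against 2.95% of the 10895 promoters of all tested genes and 1.89% of the 106 found for the lower genes. For the cell cycle element TTTGAA, searched in the same way, the shares were 12.7%, 10.6% and 12.3%, and for CCAAT they were 38.9%, 36.2% and 46.2%. Of the 36 replication genes 29 had a promoter sequence, and 8 of these held an E2F match, 5 of the 23 that rose and 3 of the 6 that were not called. The stretches around the matches of the 5 that rose are shown to give the letters and their surroundings, with the matching letters in capitals and each read 5′ to 3′ on the strand of its gene.
Mcm5, chr8:75109344-75109379, plus strand: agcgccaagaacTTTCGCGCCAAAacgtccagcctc
Mcm6, chr1:128359733-128359827, minus strand: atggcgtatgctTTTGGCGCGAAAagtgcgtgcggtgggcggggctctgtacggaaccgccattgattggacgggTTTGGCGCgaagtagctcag
Mcm7, chr5:138172029-138172060, minus strand: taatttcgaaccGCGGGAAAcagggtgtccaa
Pola1, chrX:93632274-93632305, minus strand: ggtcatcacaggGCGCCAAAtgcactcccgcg
Rfc3, chr5:151651209-151651230, minus strand: gacgtcgcacgcTTTCGCGCtc
In Mcm5 and Mcm6 matches on opposite strands overlap, and Mcm6 held 3 matches in all. The match nearest to the start began 149 bases before it in Mcm5, 47 in Mcm6, 165 in Mcm7, 138 in Pola1 and 10 in Rfc3. Without the library labelled NI1 these genes had log2 fold changes of 2.45 (Mcm5), 2.71 (Mcm6), 1.97 (Mcm7), 1.67 (Pola1) and 1.71 (Rfc3), against the list's median of 2.28. A match in these letters is a description of the sequence, and binding was not measured.

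Genes of mitosis, which act later in the cell cycle, had the same median but no calls. Of 35 measured genes 0 were called in either direction without the library labelled NI1, although the median log2 fold change was 2.28 and all 35 values were above 0. The 3 tumors lay above all 3 islet libraries for 23 of the 35, against 8.77% of all genes. The summed level was 1116 CPM in M4, 1610 CPM in M5 and 728 CPM in M6, 677 CPM in the library labelled NI1, 368 CPM in NI2 and 126 CPM in NI3. NI2 was thus 2.92-fold above NI3 in this list, a wider spread between islet samples than in the replication genes. Top2a, the topoisomerase that untangles chromosomes, was at 210, 209 and 94.9 CPM in the tumors, 38.5 and 12.3 CPM in NI2 and NI3 and 90.3 CPM in the library labelled NI1 (log2 fold change 2.76, standard error 0.62, adjusted p = 0.0659). Mki67, the gene of the proliferation marker Ki-67, was at 105, 120 and 76.1 CPM against 47.4, 12.5 and, in the library labelled NI1, 79.1 CPM, and the groups overlapped (log2 fold change 1.75, adjusted p = 0.13).

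Among cyclins, their inhibitors, E2F and Rb family genes, 6 of 24 rose and 1 fell without the library labelled NI1, against 2.19% and 1.01% of all genes. Cdkn2a (chromosome 4, 89274471 to 89294653), which encodes the tumor suppressors p16 and p19ARF, stood at 28.4, 58.8 and 10.8 CPM in M4, M5 and M6 and at 0.826 and 0.493 CPM in NI2 and NI3. The library labelled NI1 had 10.7 CPM, a level just under that of M6. The gene rose by 5.63 on the log2 scale (standard error 0.87, adjusted p = 0.0347), with a value of 3.02 (adjusted p = 0.384) for all 3 islet libraries. Cdkn2c, another inhibitor of the cyclin D kinases, rose by 2.77, from 16.9 and 9.47 CPM in NI2 and NI3 to between 76.4 and 113 CPM in the tumors. Cdk2 and its partner Ccne2, which drive entry into DNA replication, rose by 2.07 and 2.02, the repressor E2f7 by 2.91 and the Rb relative Rbl1 by 1.60. Ccnd2, the D-type cyclin, fell by 4.15 on the log2 scale (standard error 0.61, adjusted p = 0.0312). Its level was 69.2, 27.7 and 16.6 CPM in the tumors, 599 and 743 CPM in NI2 and NI3 and 102 CPM in the library labelled NI1, so that the groups did not overlap. Ccnd1 was not called (adjusted p = 0.151), and neither was the p53 target and inhibitor Cdkn1a, at 116, 148 and 46.4 CPM in the tumors and 30 to 38.4 CPM in the islets (log2 fold change 1.73, adjusted p = 0.0995).

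Genes of DNA damage signaling and recombination, many of which are also made during DNA replication, rose in 4 of 20 cases and fell in 0 without the library labelled NI1, against 2.19% of all genes called higher, with a median of 2.43. Brca1 was at 26.2, 21.9 and 23.1 CPM in the tumors, 4.42 and 2.96 CPM in NI2 and NI3 and 19.4 CPM in the library labelled NI1 (log2 fold change 2.69, adjusted p = 0.0252). Brca2 rose by 2.94 and Clspn, an activator of the replication checkpoint, by 3.15. Atm and Atr, the kinases that sense DNA damage, had log2 fold changes of 0.38 and 0.35 (adjusted p = 0.743 and 0.415). Of 19 targets of p53, 0 were called, with a median of 0.31. Brca2 was also the single gene called among 18 genes reported as mutated in PanNETs, against 2.19% of all genes called higher. Men1, which encodes menin, was between 35.5 and 51.5 CPM in the tumors and between 45.9 and 59 CPM in the islets (adjusted p = 0.34).

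Insulin messages took a smaller share of reads in the tumors than in NI2 and NI3, a difference in level that did not pass the test. Ins1 and Ins2 together took 3.80% of reads in M4, 8.37% in M5 and 11.8% in M6, against 24.8% in NI2 and 26.0% in NI3, with 12.2% in the library labelled NI1. Ins1 was at 15033, 17591 and 15591 CPM in the tumors and 52260 and 68679 CPM in NI2 and NI3, and the library labelled NI1, at 19971 CPM, was closer to the tumors but above each of them. The log2 fold change of Ins1 was -1.91 (standard error 0.78, adjusted p = 0.194) and that of Ins2 -1.90 (standard error 1.16, adjusted p = 0.348) without the library labelled NI1, and neither passed the test. Iapp, which encodes the peptide that beta cells release with insulin, had -1.72 (adjusted p = 0.198).

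Genes that define beta cells were close to the islet level. Of 18 measured identity genes 0 were called, with a median log2 fold change of 0.27 without the library labelled NI1, and their summed level was 3748, 4492 and 3629 CPM in M4, M5 and M6 against 2980 and 2859 CPM in NI2 and NI3. Pdx1, the master regulator of the pancreas, was between 133 and 193 CPM in the tumors and between 122 and 136 CPM in the islets. Mafa, which marks mature beta cells, was at 214, 268 and 229 CPM against 153, 195 and, in the library labelled NI1, 210 CPM (log2 fold change 0.45, adjusted p = 0.295). The tumor tissue thus held the defining markers of beta cells in all 3 samples. Of 24 genes of glucose sensing and insulin release 0 were called, although 2 of them differed widely among samples. Slc2a2, the glucose transporter of the beta cell, was at 172 CPM in M4, 21.8 CPM in M5 and 116 CPM in M6, against 225 and 301 CPM in NI2 and NI3 (adjusted p = 0.299). G6pc2, a glucose-6-phosphatase of the islet, was at 499 to 712 CPM in the tumors and 743 to 3442 CPM in the islets, with no overlap (log2 fold change -2.01, adjusted p = 0.0609).

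Of the hormones of the other islet cells glucagon fell, and the others did not pass the test. Gcg, the glucagon gene (ENSMUSG00000000394, chromosome 2, 62474530 to 62483650), was at 11.4, 19 and 31.5 CPM in M4, M5 and M6. The islet libraries held 2114 CPM (NI2), 12885 CPM (NI3) and 726 CPM (the library labelled NI1). Every islet library was above every tumor, and here the library labelled NI1 stood 23.1-fold above M6. Gcg fell by 8.50 on the log2 scale (standard error 1.04, adjusted p = 0.0254) without that library, and with it the value was -7.99 (standard error 1.34, adjusted p = 0.357). Of 10 measured alpha, delta and PP cell markers 2 fell, against 1.01% of all genes called lower. These were Gcg and the hormone carrier Ttr (157 to 292 CPM in the tumors, 307 to 1216 CPM in the islets, log2 fold change -2.13, adjusted p = 0.0405). Sst, which encodes somatostatin, was at 76.6, 49.5 and 2.51 CPM against 285 and 2168 CPM in NI2 and NI3, with 73.7 CPM in the library labelled NI1 (log2 fold change -4.83, adjusted p = 0.105), and Ppy ranged from 55.2 to 1585 CPM among the tumors alone (adjusted p = 0.688). NI3 exceeded NI2 by 6.09-fold for Gcg and 5.88-fold for Ppy, a spread between islet samples that entered each of these tests.

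Digestive enzyme messages of acinar cells, the exocrine tissue around the islets, were low in the same libraries as glucagon. Of 19 measured acinar markers 0 were called and all had a value below 0 without the library labelled NI1 (median -5.03), and 16 were lower in every tumor than in every islet library, against 8.12% of all genes. The summed level was 97.3 to 481 CPM in the tumors and 811 to 14056 CPM in the islets, and 1 of the 25 listed genes had no read in any tumor. NI3 held most of it, with the amylase gene Amy2a5 at 5983 CPM there, 415 CPM in NI2, 319 CPM in the library labelled NI1 and 24.4, 33.7 and 134 CPM in the tumors. Amy2a5 has near-identical copies among which reads could be split. The part of acinar RNA in the results on hormones was not tested.

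**Figure D4:**
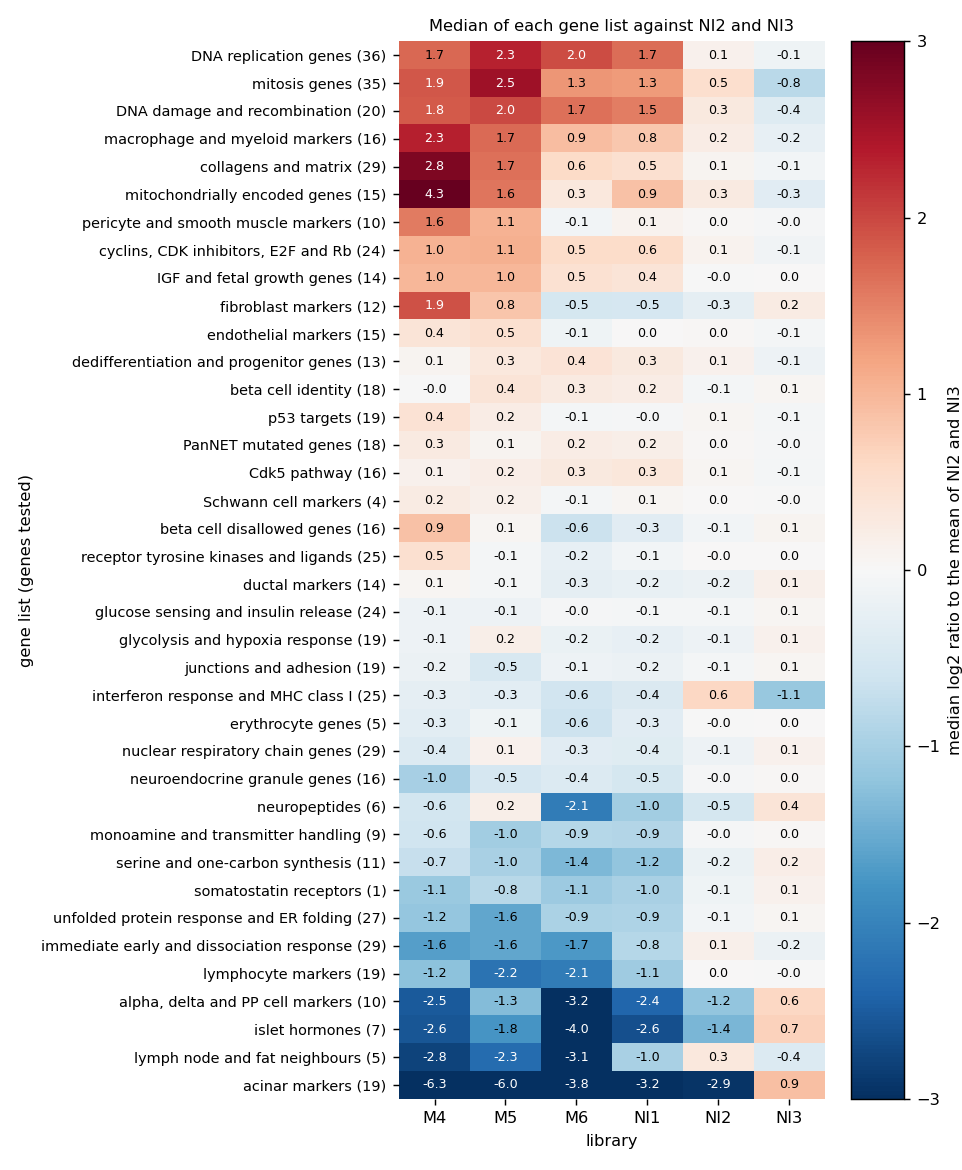
Heat map of 38 gene lists in each of the 6 libraries, where each cell gives the median over the measured genes of the list of the log2 ratio to the mean of NI2 and NI3, with 1 CPM added. Replication, mitosis and DNA damage genes are raised in M4, M5, M6 and the library labelled NI1. Matrix and macrophage genes are highest in M4, and acinar and lymph node genes are lowest in the tumors. Islet hormone genes are lower in the tumors and in the library labelled NI1 than in NI2 and NI3.

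Neuroendocrine granule genes, which PanNETs and islets share, fell in 1 of 16 cases, against 1.01% of all genes. Vgf, the precursor of several secreted peptides, was at 1.62, 1.59 and 0.288 CPM in the tumors, 41.4 and 29.4 CPM in NI2 and NI3 and 1.91 CPM in the library labelled NI1 (log2 fold change -4.95, standard error 0.72, adjusted p = 0.0308). Chga and Syp, the pathologist's markers chromogranin A and synaptophysin, had log2 fold changes of -1.04 and -0.69 (adjusted p = 0.379 and 0.214), and Chga ranged from 5777 to 13676 CPM among the tumors. Other members went the other way, with 4 of the 16 above 0. The tumors lay above all 3 islet libraries for 3 of the 16, against 8.77% of all genes, and below them for 2, against 8.12%. The 3 were Eno2, Ncam1 and Uchl1, with log2 fold changes of 0.89, 1.06 and 1.09 (adjusted p = 0.151, 0.0849 and 0.12), none of them called. Npy, neuropeptide Y, rose by 6.35 (standard error 1.11, adjusted p = 0.0409), from 1.74 and 1.19 CPM in NI2 and NI3 to 96.2, 237 and 24.8 CPM in M4, M5 and M6, with 20.3 CPM in the library labelled NI1. It was the 1 gene called among 5 measured neuropeptides, against 2.19% of all genes called higher. A log2 fold change above 0 was seen for 4 of the 5. Pdyn, of the same list, went the other way and was not called (log2 fold change -3.41, adjusted p = 0.108). It was at 19.2, 70.6 and 5.64 CPM in the tumors, 502 and 178 CPM in NI2 and NI3 and 27.9 CPM in the library labelled NI1. Vip, which encodes vasoactive intestinal peptide, was at or below the limit of detection in M5 and at most 0.227 CPM in the other tumors, but at 5.36, 4.69 and 9.43 CPM in NI1 to NI3 (log2 fold change -5.69, adjusted p = 0.148, with all 3 islet libraries). Here the library labelled NI1 lay between NI2 and NI3. In the Cdk5 pathway 3 of 16 genes rose, against 2.19% of all genes. These were Cdk5r1, Rbl1 and Dnm1, the last of which encodes dynamin, a protein of vesicle retrieval that Cdk5 can phosphorylate (18, 35.2 and 26.8 CPM in the tumors, 4.82 and 6.83 CPM in NI2 and NI3, log2 fold change 2.20, adjusted p = 0.0405). Cdk5r1 and Rbl1 also stand in the results above, so this count adds Dnm1 alone. For Cdk5r1, reads of the transgene and of the gene itself were not told apart.

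Immediate early genes, which cells switch on within minutes of stimulation or of tissue handling, were among the genes that fell in the tumors. Without the library labelled NI1, 11 of 26 measured genes fell and 0 rose, against 1.01% of all genes called lower, with a median log2 fold change of -1.49. With all 3 islet libraries edgeR called 0 of 29 and DESeq2 called 14 lower, and the tumors lay below all 3 islet libraries for 18, against 8.12% of all genes. Fos (ENSMUSG00000021250, chromosome 12, 85473890 to 85477273), a component of the AP-1 factor, was at 3.74, 1.73 and 1.28 CPM in M4, M5 and M6. In the islets it was at 956 CPM (NI2), 398 CPM (NI3) and 144 CPM (the library labelled NI1). The log2 fold change of Fos came to -8.26 (standard error 0.69, adjusted p = 0.0152) without the library labelled NI1 and -7.82 (standard error 0.92, adjusted p = 0.148) with it, so that this library changed the size little and the call.

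The other members that passed the test were lower in all 3 tumors than in NI2 and NI3. Zfp36, a protein that destabilizes messenger RNA, was at 16.9, 15.0 and 14.5 CPM in the tumors and at 121, 97.5 and, in the library labelled NI1, 56.2 CPM (log2 fold change -2.81, standard error 0.20, adjusted p = 0.0152). Nr4a1 fell by 3.06, Jun by 3.37, Egr1 by 4.61, Dusp1 by 2.67, Junb by 2.18, Ier2 by 1.82 and Btg2 by 1.58. The heat shock genes Hspa1a and Hspa1b fell by 4.66 and 4.24, and as near-identical copies they can share reads. The library labelled NI1 was above every tumor for Fos, Egr1, Jun, Nr4a1, Zfp36, Dusp1, Junb, Ier2, Btg2 and Hspa1a. For Hspa1b it lay among the tumors, at 4.43 CPM against 6.76, 3.56 and 1.01 CPM. The summed level of the list was 654 to 868 CPM in the tumors, 3708 CPM in NI2, 2276 CPM in NI3 and 1291 CPM in the library labelled NI1. A log2 fold change above 0 was seen for 2 of the 26, neither of them called, Fosl2, at 22.9, 12.5 and 9.37 CPM in the tumors against 7.18 and 7.59 CPM in NI2 and NI3 (log2 fold change 1.02, adjusted p = 0.214), and Klf6 (0.35, adjusted p = 0.624). Without M5, 0 of the list's genes were called.

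Genes of the unfolded protein response and of folding in the endoplasmic reticulum fell in 4 of 27 cases and rose in 0, against 1.01% of all genes called lower, with a median of -1.19 without the library labelled NI1. Chac1, a glutathione-degrading enzyme induced by the factor ATF4, was at 4.79, 4.88 and 4.92 CPM in the tumors, nearly the same value in each, and at 29.3 and 48.3 CPM in NI2 and NI3, with 7.76 CPM in the library labelled NI1 (log2 fold change -2.99, standard error 0.29, adjusted p = 0.0182). Sdf2l1 and Creld2, which encode folding factors of the endoplasmic reticulum, fell by 2.54 and 1.75, and Ppp1r15a, a phosphatase subunit that restores translation, by 1.43. In serine and one-carbon synthesis 3 of 11 genes fell and 0 rose, against the same 1.01%. Aldh1l2, a mitochondrial folate enzyme, was at 3.25, 3.15 and 5.4 CPM in the tumors and at 35.0, 47.6 and, in the library labelled NI1, 7 CPM (log2 fold change -3.38, adjusted p = 0.0182). Mthfd2, another enzyme of that pathway, fell by 2.31, and Asns, asparagine synthetase, by 2.05. Phgdh, the first enzyme of serine synthesis, was at 5.45 to 18.2 CPM in the tumors and 22.4 to 86.3 CPM in the islets and was not called (adjusted p = 0.0505). Shmt1 was not called either and had a value in the other direction, at 4.23, 6.15 and 3.93 CPM in the tumors against 0.826 and 0.896 CPM in NI2 and NI3 and 3.46 CPM in the library labelled NI1 (log2 fold change 2.47, adjusted p = 0.0556). Nuclear genes of the respiratory chain (0 of 29 called, median -0.16) and of glycolysis and the hypoxia response (0 of 19, median -0.04) stayed near the median of all genes.

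Markers of cells other than endocrine cells also differed between the groups, and their part in the results above was not tested. Lymphocyte markers fell in 3 of 17 cases, against 1.01% of all genes. Ms4a1, which encodes CD20, was at 1.70, 0.386 and 1.60 CPM in the tumors and at 26.2, 25.8 and, in the library labelled NI1, 12 CPM (log2 fold change -4.40, standard error 0.63, adjusted p = 0.0291). Cd79b fell by 2.78, and so did Fcer2a (by 3.83), a B cell receptor listed among genes of neighbouring lymph node and fat. Cd79a, whose product pairs with that of Cd79b, was not called and was at 23.6, 62.8 and 81.6 CPM in the tumors, 41.1 and 44.2 CPM in NI2 and NI3 and 85.2 CPM in the library labelled NI1 (log2 fold change 0.40, adjusted p = 0.641). The summed level of the lymphocyte list was 459 to 1648 CPM in the tumors and 660 to 2384 CPM in the islets. Ccl21a, a chemokine of lymph node stroma, was at 8.30, 13.2 and 0.735 CPM against 78.1, 47.2 and 50.7 CPM in the library labelled NI1 (adjusted p = 0.124 without it), and Cr2, a complement receptor of B cells, was at most 0.256 CPM in the tumors and at 25.7, 9.97 and 3.89 CPM in the islets. For both genes the library labelled NI1 lay above every tumor.

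Among macrophage markers 1 rose. Cd68, a lysosomal protein of macrophages, rose by 2.59 (standard error 0.49, adjusted p = 0.0489), at 37.1, 46.9 and 18.2 CPM in the tumors, 7.05 and 4.28 CPM in NI2 and NI3 and 15.8 CPM in the library labelled NI1. It was 1 of 16 measured markers to be called, where 2.19% of all genes were called higher, and 12 of the 16 were higher in every tumor than in every islet library, against 8.77% of all genes, with summed levels of 628 to 1697 CPM against 300.1 to 608 CPM. Pericyte markers rose in 2 of 10 cases, against 2.19% of all genes. These were Kcnj8 (2.73) and Abcc9 (1.61), which encode the pore and the regulatory subunit of the potassium channel of these cells and lie side by side on chromosome 6. Myh11 and Notch3 of the same list had log2 fold changes of -0.16 and 0.29 (adjusted p = 0.905 and 0.692). Of 29 collagen and matrix genes 0 were called, with a median of 2.19, and the sums were 6432 CPM in M4, 2625 CPM in M5 and 1634 CPM in M6, against 763 to 1598 CPM in the islets. Col1a1 showed the same unevenness, at 756, 139 and 21.6 CPM in the tumors and 19.8 to 22.4 CPM in the islets (adjusted p = 0.164). Endothelial markers (0 of 15, median 0.26), ductal markers (0 of 14, median 0.04) and interferon response genes (0 of 25, median -0.23) were not called.

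Outside the lists, genes were named by the size of their change. Hpca, a neuronal calcium sensor, was at 51.0, 77.2 and 27.4 CPM in the tumors, 0.312 and 0.246 CPM in NI2 and NI3 and 23.5 CPM in the library labelled NI1 (log2 fold change 7.53, standard error 0.63, adjusted p = 0.0152). Nr1i2, the nuclear receptor PXR that senses foreign compounds, was at 43.8, 54.5 and 38.4 CPM, against 0.937 and 0.762 CPM in NI2 and NI3 and 34.2 CPM in the library labelled NI1, and with an adjusted p of 0.008 (log2 fold change 5.75, standard error 0.32) it shared the smallest adjusted p with Ache. B3gat1, which makes the HNK-1 epitope known as CD57, rose by 6.50, Clstn2, a synaptic cadherin, by 4.96, Cit, a kinase of cytokinesis, by 4.86, and Ybx2, a protein that binds messenger RNA in germ cells, by 5.13. Scn11a, a sodium channel of sensory neurons, was at 18.5, 32.2 and 6.19 CPM in the tumors and at 0 and 0.112 CPM in NI2 and NI3. Lypd1 was at 9.14, 8.49 and 0.847 CPM where NI2 had no read and NI3 lay below the limit of detection. Prnd (log2 fold change 4.98) and H2-M10.1, with Cdkn2a and Npy described above, completed the 12 genes of largest rise whose groups did not overlap.

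Ache, acetylcholinesterase, had the smallest standard error among the 12 lower genes named by size of change. It was at 0.868, 0.681 and 0.847 CPM in the tumors, 45.0 and 33.8 CPM in NI2 and NI3 and 4.38 CPM in the library labelled NI1, and fell by 5.62 (standard error 0.30, adjusted p = 0.008). Tmem59l fell by 5.38, Ugt2b34, a glucuronosyltransferase, by 5.72, Gsto2, a glutathione transferase, by 4.96, Sult1d1, a sulfotransferase, by 4.27 and Fcmr, the receptor for IgM, by 4.39. The choice of the 12 genes required every islet library, the library labelled NI1 included, to lie above every tumor. For each of these 6 genes that library also lay below NI2 and NI3. Dsc3, a cadherin of desmosomes, had no read in any of the 3 tumors, which allows up to 0.113, 0.0681 and 0.048 CPM in M4, M5 and M6, and was at 3.51, 2.5 and 4.66 CPM in NI1 to NI3 (adjusted p = 0.178 with all 3 islet libraries).

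Igf2, an insulin-like growth factor that is highly expressed before birth, was at 521 CPM in M4, 87.0 CPM in M5 and 754 CPM in M6, at 8.57 and 10.2 CPM in NI2 and NI3 and at 641 CPM in the library labelled NI1. It rose by 5.6 (standard error 1.01, adjusted p = 0.0434) without that library, and with it the log2 fold change was 1.05 (adjusted p = 0.746). The other genes of the list were not called, such as Igf1r, at 49.7 to 62.7 CPM in the tumors and 54.3 to 66.7 CPM in the islets. Thus 1 of 14 was called, against 2.19% of all genes called higher. Srl and Wfikkn2 had a like profile, with the highest levels in M6 and the library labelled NI1. Srl was at 44.2, 48.6 and 203 CPM in the tumors and 184 CPM in the library labelled NI1, against 3.61 and 1.43 CPM in NI2 and NI3 (log2 fold change 5.29, adjusted p = 0.0457), and Wfikkn2 rose by 5.07 (adjusted p = 0.0477).

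**Figure D5:**
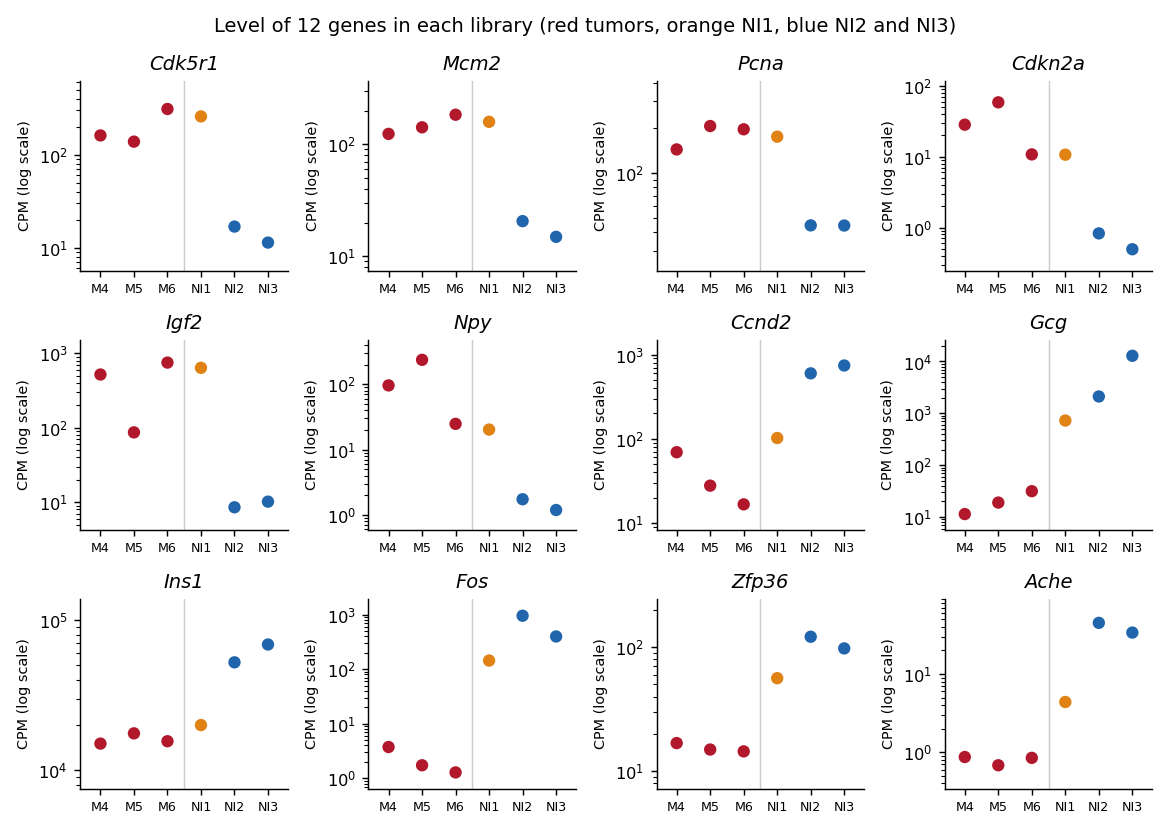
Level of 12 genes in each library in CPM, on log axes that differ between panels, with tumors in red, the library labelled NI1 in orange and NI2 and NI3 in blue. For Cdk5r1, Mcm2, Pcna, Cdkn2a, Igf2 and Npy the library labelled NI1 lies with or next to the tumors, while for Gcg, Fos, Zfp36 and Ache it lies between the tumors and the other islets.

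The 3 tumors were not alike, and some genes were high in 1 of them. These were picked by their values and carry no test. Sfrp1, a secreted inhibitor of Wnt signaling, was at 193 CPM in M4, 11.6 CPM in M5 and 0.527 CPM in M6. Thbs4, Cxcl14, Aldh1a2, Fndc1 and Col12a1, of connective tissue for the most part, shared that profile, beside the matrix sums given above. In M5, Cck, the hormone cholecystokinin, was at 44.2 CPM and at most 2.11 CPM in each of the other 5 libraries, and Slco1a5 and Lipc were at 229 and 185 CPM, against at most 28.3 CPM in the other 5 libraries. The functional tumor M2 also held these messages, at 36.1 CPM for Cck, 367 CPM for Slco1a5 and 125 CPM for Lipc when all 9 libraries were scaled together. For M6 the largest such excess over the other 5 libraries was 1.42-fold with 1 CPM added, in Rpl10 (459 CPM against 323 CPM in M4, the next highest). Slc17a6, the vesicular glutamate transporter VGLUT2, was at 28.2 CPM in M6 and 24.5 CPM in the library labelled NI1 and at most 0.182 CPM in the other 4 libraries. Ppp2r2c (63.1 and 53 CPM, at most 5.47 CPM elsewhere), Adgrb1 and Sall1 were shared by the same pair in the same way.

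A set of genes at least 8-fold apart between M6 and each of NI2 and NI3 was chosen after the data were seen. The higher side had to reach at least 20 CPM. For these genes the library labelled NI1 was placed on a scale from 0 (M6) to 1 (the mean of NI2 and NI3). Since that library was already known to resemble M6, the positions describe the likeness and do not test it. For 74 genes higher in M6 its median position was 0.15, with quartiles of 0.12 and 0.18, and all 74 were nearer to M6. For 62 genes lower in M6 the median was 0.10, with quartiles of 0.07 and 0.26, and 61 were nearer to M6.

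Mitochondrially encoded transcripts took 32.1% of reads in M4, 8.41% in M5 and 3.54% in M6, against 4.94%, 2.71% and 1.76% in NI1 to NI3. Of 15 such genes 0 were called (median 3.02), and removing them before scaling left 327 genes higher and 177 lower. For each chromosome, the median log2 ratio of gene levels to the mean of NI2 and NI3 was taken, minus the library's median over all tested genes. In M4 and M5 this value was 0.24 and 0.16 on chromosome 11, 0.12 and 0.20 on chromosome 17, and -0.23 and -0.24 on chromosome 14. In M6 the values of the 20 chromosomes, taken in the same way, stayed between -0.13 (chromosome X) and 0.07. DNA copy number was not measured in these libraries.

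Against the 3 functional tumors M1, M2 and M3, edgeR called 0 of 15532 genes in either direction, with a smallest adjusted p of 0.455 and 1598 genes at an unadjusted p under 0.05. None of the changes described here can therefore be called particular to the non-functional tumors.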

How the data were processed

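RNA was isolated from tissue with an RNeasy kit and sequenced as single-end reads. According to the methods and the submitters' processing notes, the authors trimmed reads with Trimmomatic 0.38, quantified transcripts with Salmon 1.4.0 against the mm10 reference and tested differences with DESeq2. The deposited values are estimated counts, whole numbers for each gene that are unscaled between libraries, although the table is called TPM. How transcripts were summed to genes was not given in the sources used here.

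Identifiers were matched to GENCODE vM21 (GRCm38) for 54094 of 54347 genes, and 0.0121% of the counts lay on the 253 others. A gene entered a fit if it reached 1 CPM in 3 or more of its libraries. Counts were scaled by TMM, and edgeR 4.0.16 (R 4.3.3) was used to test M4, M5 and M6 against the islets by quasi-likelihood. Standard errors of log2 fold changes were taken from the F statistic, as the fold change over its square root. Salmon splits reads between similar transcripts, so near-identical genes are uncertain. The fits were tested on simulated counts. DESeq2 1.42.0 and limma 3.58.1, other filters and scalings, and leaving out each library were tried as alternatives.

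The labels separate both kinds of tumor by title only, and the names functional and non-functional are those of the study. The comparison, its 38 gene lists and the alternatives were chosen with earlier results of these data known. Named genes were 30 chosen genes, the 2 highest and 2 lowest of each list with any member called, the 12 highest and 12 lowest called genes with groups that did not overlap (protein coding, mean of at least 5 CPM) and genes that set libraries apart; any further gene is marked as picked with its values in view. A few genes that the rule names are not reported here.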

Additional observations from a re-analysis of the deposited data

How the results depend on the processing

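No paired analysis was possible because the tumors are numbered 4 to 6 and the islets 1 to 3, so that the groups share no number. With all 3 islet libraries, edgeR's 0 higher and 0 lower genes became 2 and 41 without a filter, 1 and 20 without scaling, 142 and 158 with DESeq2, and 1012 and 831 at an unadjusted p under 0.05 with a 1.5-fold change. Leaving out 1 library gave 0 to 317 higher and 0 to 146 lower genes, the upper values without the library labelled NI1, and leaving out both M6 and that library, an alternative chosen after seeing the data, gave 696 and 401. Without the library labelled NI1, the 317 higher and 146 lower genes became 649 and 392 without a filter, 1042 and 272 without scaling, 1643 and 962 with DESeq2 (1916 and 1121 on all genes, chosen after seeing the data), 505 and 230 with limma-trend, 1093 and 690 with limma-voom and library weights, 1015 and 596 at an adjusted p under 0.1, and 2063 and 1373 at an unadjusted p under 0.05 with a 1.5-fold change. Leaving out 1 more library gave 0 to 696 higher and 0 to 401 lower genes. More genes entered the fits without a filter, and the cause of these shifts was not tested.

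Of the 89 named genes called without the library labelled NI1, 89 stayed called with DESeq2 and with limma-trend, 88 with limma-voom, 84 with the filterByExpr filter and 78 with the functional tumors in the fit, and no value changed sign under any alternative run. Without M4 47 of 80 stayed called, without M5 3 of 81 (Ache, Ms4a1 and Igf2), without M6 77 of 77, and without NI2 or NI3 0 of 84. The ratio of the distances from the library labelled NI1 to M6 and to the other islets ran from 0.327 to 0.456 over 4 alternatives. Low counts limit what can be said of genes near 0.1 CPM.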
